A study of Mus musculus with 12 samples.

Results

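A frequent A-to-G change in the seed of 8 miRNA hairpins was followed through the retina of diabetic mice. The hairpins are mmu-mir-376a, mmu-mir-376b, mmu-mir-376c, mmu-mir-379, mmu-mir-411, mmu-mir-381 and mmu-mir-300 of the Dlk1-Dio3 region, and mmu-mir-3099; their arms are written miR-376a-5p and so on below. These 8 of 997 annotated precursors with reads (a further 535 with reads were predicted by the submitters) were chosen by the A-to-G share of their reads in the seed, that is, how often a read has G where the hairpin has A. They are not simply the highest shares, since some hairpins outside the 8, given below, stood above the lowest of them. They held 179959 of 62878432 counted reads, or 0.286%. As this share is the value that chose them, the shares are described below without a test, and tests were kept for the ends of the reads and for the comparison of treated with untreated mice.

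Adenosine deaminases acting on RNA (ADARs) turn adenosine into inosine within double-stranded RNA, and hairpins of miRNAs are among their substrates. Inosine pairs like guanosine, so it is read as G after reverse transcription. The seed, bases 2 to 8 of a miRNA, carries most of its pairing with target mRNAs, so a changed base there changes which mRNAs can pair. The Dlk1-Dio3 region is imprinted, its miRNAs are made from the maternal chromosome, and they are abundant in neurons; editing of the miR-376 cluster is well known from brain.

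The libraries came from db/db mice, whose leptin receptor does not signal and which grow obese and diabetic. There were 6 called model, read here as db/db animals without the drug, and 6 called Keluoxin, after a Chinese herbal capsule; the labels give neither age, dose nor length of treatment. All 12 carry the db/db genotype and KsJ background in the strain label, so no library here is from a non-diabetic mouse. The number before BL in that label differs for each sample and was left aside. The source label is retina although the extraction text mentions an exosome pellet, and separate animals are not stated. The p-values below therefore refer to the spread among libraries, part of which may be technical.

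The sequences below show, for each edited arm, its most frequent unedited read and its most frequent edited read, because the change is a single letter inside the seed. Bases 2 to 8 of each read are in capitals. Positions are counted from 1 at the annotated 5′ end, so that A5G is an A in the hairpin read as G at base 5. Of the 9 arms, 8 were matched by name to RefSeq mature miRNAs (GRCm38.p6), and the unedited read was letter for letter the RefSeq sequence in all of these 8 except miR-376b-5p.
miR-376a-5p unedited: gGTAGATTctccttctatgagt
miR-376a-5p A4G: gTGGATTCtccttctatgagt
miR-376b-3p unedited: aTCATAGAggaacatccactt
miR-376b-3p A6G: aTCATGGAggaacatccactt
miR-376b-5p unedited: gTGGATATtccttctatggtt
miR-376b-5p A7G: gTGGATGTtccttctatggtt
miR-379-5p unedited: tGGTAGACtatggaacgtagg
miR-379-5p A5G: tGGTGGACtatggaacgtagg
miR-411-5p unedited: tAGTAGACcgtatagcgtacg
miR-411-5p A5G: tAGTGGACcgtatagcgtacg
miR-381-3p unedited: tATACAAGggcaagctctctgt
miR-381-3p A4G: tATGCAAGggcaagctctctgt
miR-300-3p unedited: tATGCAAGggcaagctctcttc
miR-300-3p A7G: tATGCAGGggcaagctctcttc
miR-3099-3p unedited: tAGGCTAGagagaggttgggga
miR-3099-3p A7G: tAGGCTGGagagaggttgggga
The edited miR-376a-5p read begins 1 base after the unedited one, so its capitals are shifted by 1 base. The ninth edited arm is miR-376c-3p, with A6G.

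Of the hairpins, 7 lie on the plus strand of chromosome 12 within 17.84 kb, and all 8 deposited hairpins equal the RefSeq hairpins of GRCm38.p6. In order along the chromosome they are Mir379 at chr12:109709060-109709125, Mir411 at chr12:109710175-109710256, Mir376c at chr12:109722718-109722803, Mir376b at chr12:109723458-109723539, Mir376a at chr12:109723781-109723848, Mir300 at chr12:109724313-109724391 and Mir381 at chr12:109726822-109726896. Mir376a overlaps an exon of Gm25252, annotated as a miRNA on the minus strand. Mir3099 lies at chr7:6803587-6803670 on the plus strand, in an intron of Usp29, which codes for a ubiquitin-specific protease. The edited A of miR-3099-3p is base 6803644 of chromosome 7, and those on chromosome 12 are 109709069 (miR-379-5p), 109710194 (miR-411-5p), 109722775 (miR-376c-3p), 109723477 and 109723513 (miR-376b-5p and miR-376b-3p), 109723789 (miR-376a-5p), 109724369 (miR-300-3p) and 109726873 (miR-381-3p).

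The A-to-G share is the percentage of reads with G among reads with G or A at that base. A deposited read may differ from its hairpin at no more than 1 place, so an edited read with any second difference could not be listed; unedited reads were therefore counted only where they had no difference at all. Over the 12 libraries together, miR-3099-3p stood highest with 72.18% at base 7 (G in 3332 reads, A in 1284), followed by miR-376b-3p with 65.83% at base 6 (5736 and 2978). The share was 54.79% in miR-376a-5p, from only 332 reads with G and 274 with A, and 46.98% in miR-376c-3p, from 366 and 413. In miR-411-5p it was 40.37% (7343 and 10848 reads), in miR-376b-5p 27.46% (1074 and 2837) and in miR-379-5p 16.12% (2961 and 15407). The lowest shares were 6.304% in miR-381-3p (2504 and 37214) and 5.18% in miR-300-3p (920 and 16840). In 3 arms reads with G thus outnumbered those with A, and both arms of the miR-376b hairpin had an edited base. Edited here means a share of at least 5% in reads of small RNA. Whether the DNA of these mice carries A at these bases was not tested.

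**Figure D1:**
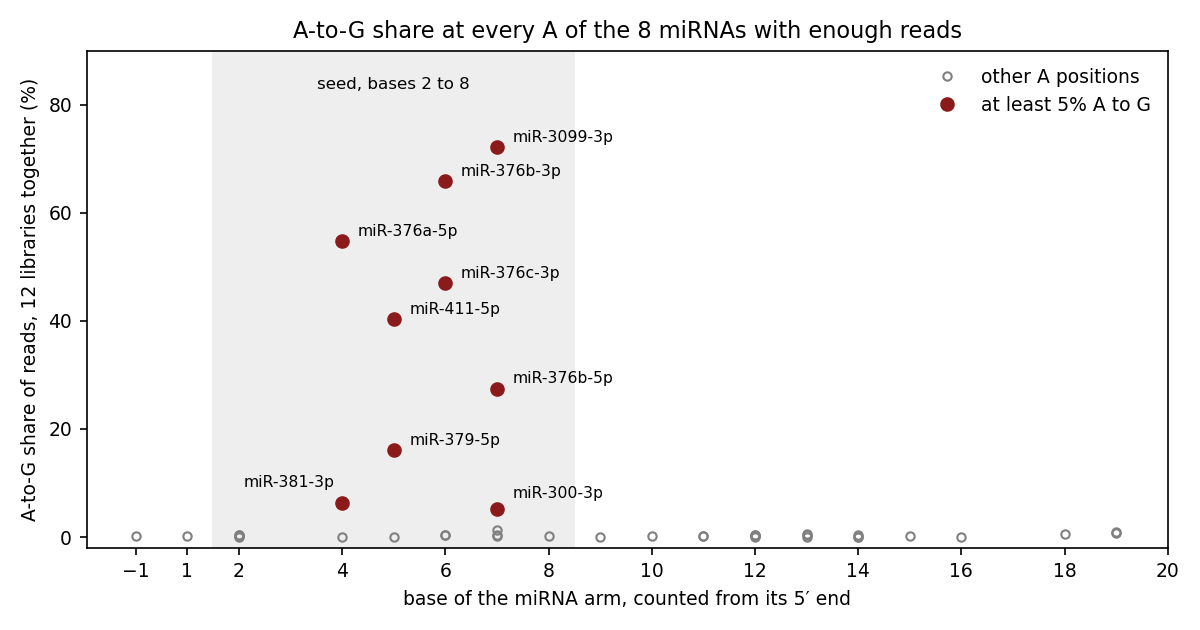
A-to-G share over the 12 libraries together (vertical axis, percent) by base counted from the annotated 5′ end (horizontal axis, with −1 the base before it); the seed is shaded. Drawn are A positions with at least 20 reads in every library, and the edited bases of miR-376a-5p and miR-376c-3p. Other positions with fewer reads are not drawn, among them base 1 of miR-381-5p, outside the seed, with G in 7 reads and A in 8. The 9 filled points lie between 5.18% and 72.18%, all in the seed, which was part of the choice, and the 33 open points lie at or under 1.296%.

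Among the listed reads of the edited arms, change to G was concentrated on 1 base of each arm. A listed read has at most 1 difference, so a read with G at the edited base could not show G at a second A. The other positions of these arms were therefore counted only in reads without G at the edited base. At 33 other A positions with at least 20 reads in every library, the share had a median of 0.2526%. The highest, and the one just outside the 5% threshold, was base 7 of miR-381-3p with 1.296% (520 reads with G, 39604 with A); miR-300-3p with 5.18% was just inside it. At the edited bases, the change from A to C or T together was 0.0623% ± 0.0352 (SD, n = 6) in model and 0.0881% ± 0.0576 in Keluoxin libraries.

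The same neighbouring bases were also found around A positions of these hairpins with little or no G. The arm miR-376a-3p, the partner strand of miR-376a-5p, has an A at base 6, as miR-376b-3p and miR-376c-3p do, and the same U and G around it. None of its 216 listed reads there had G, for a limit of 1.389% (3 counts of the total, counting error only). A read sequence seen only once in a library is not listed, and the lowest library held 7 reads here. The limit leaves such reads out, so the share could be higher. The A at base 2 of miR-3099-3p and of miR-411-5p also sits between U and G. There G was found in 0 of 1355 listed reads and in 35 beside 10848 listed reads with A (0.3216%). These counts hold only reads without G at the edited base, and again no read sequence seen only once in a library.

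The base before and after the edited A was U and G, written TAG in the reads, at 6 of the 9 edited bases. The other 3 were TAT in miR-376b-5p, TAC in miR-381-3p and AAG in miR-300-3p. Among 1250 A positions of annotated precursors outside these 8 hairpins with at least 20 reads in every library, 89 (7.12%) stood in TAG, searched on the strand of the miRNA. These 89 had a median A-to-G share of 0.2205%, 4 had at least 1% and 1 at least 5%. Of the 1250 positions in any context, 6 had at least 5%, so that 1 of these 6 (16.67%) stood in TAG. In the structure RNAfold predicted for each hairpin, the edited A was unpaired in miR-376a-5p, miR-376b-5p, miR-379-5p, miR-411-5p and miR-3099-3p, and paired with U in miR-376b-3p, miR-376c-3p, miR-381-3p and miR-300-3p.

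Set against 75 A positions of annotated precursors that entered the test between groups (at least 20 reads in every library and a share of at least 1%), the edited bases of miR-3099-3p, miR-376b-3p, miR-411-5p, miR-376b-5p and miR-379-5p ranked 1 to 5, that of miR-381-3p ranked 11 and that of miR-300-3p ranked 13. The highest shares outside the 8 hairpins were 14.26% at base 3 of miR-99b-3p, 8.127% at base 21 of miR-203-3p, 6.884% at base 16 of miR-378a-3p, 6.861% at base 7 of miR-24-5p and 6.608% at base 16 of miR-378c-5p. The bases in miR-99b-3p and miR-24-5p lie in the seed, the other 3 do not.

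The edited seeds were compared with those of 1738 RefSeq mature mouse miRNAs. Editing gives miR-381-3p the seed of miR-300-3p, AUGCAAG, in place of AUACAAG. The edited seed of miR-379-5p, GGUGGAC, is that of miR-7672-5p, while the unedited one is shared with miR-1193-5p. The edited seed of miR-3099-3p, AGGCUGG, is that of miR-3083b-5p. Editing takes from miR-376b-5p the seed UGGAUAU that it shares with miR-376c-5p. The edited seeds of miR-376a-5p, miR-376b-3p, miR-376b-5p, miR-411-5p and miR-300-3p matched no other mature miRNA, as read from the annotated 5′ end.

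Edited miR-381-3p and unedited miR-300-3p share their first 20 bases and are told apart by the last bases alone. Reads with these 20 bases that ended in TC, as miR-300-3p does, numbered 10078, and those that ended in GT, as miR-381-3p does, numbered 2453 and were counted as edited miR-381-3p. The other 2-base ends CT and AT had 155 and 52 reads, and TT had 4037. Shorter reads fit both. They were left out of the miR-381-3p share, while those that the deposited tables list as unedited miR-300-3p were kept there. When they were left out with their edited counterparts (2131 reads with A and 116 with G; an alternative chosen after seeing the data), the miR-300-3p share was 5.183% in place of 5.18%, with 3.819% to 6.81% in single libraries, and it again did not pass between groups (adjusted p = 0.727, limma). Reads with the unedited first 20 bases of miR-381-3p and the TC end of miR-300-3p numbered 64, against 36686 with GT.

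In single libraries the ranges of shares overlapped for some neighbours in this order and not for others. In the 12 libraries the share of miR-3099-3p lay between 66.93% and 75.1% and that of miR-376b-3p between 58.04% and 70.44%, so these overlapped. The share of miR-376a-5p ran from 44.44% to 66% and that of miR-376c-3p from 25.58% to 59.76%, with 11 to 87 and 12 to 134 reads per library, and both overlapped their neighbours in the order. The share of miR-411-5p, from 37.56% to 42.47%, lay in every library above that of miR-376b-5p, from 20.38% to 32.57%. The share of miR-379-5p, from 13.93% to 19.53%, lay below that of miR-376b-5p in every library and above those of miR-381-3p (3.416% to 8.163%) and miR-300-3p (3.912% to 6.426%), which overlapped each other.

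**Figure D2:**
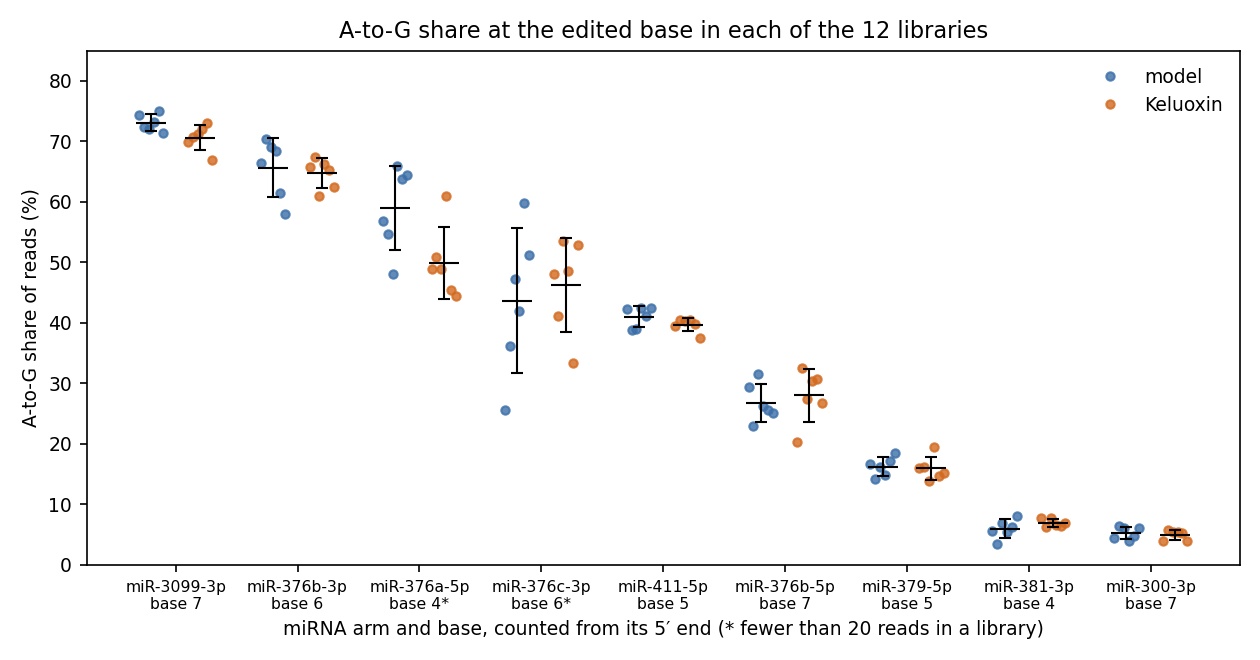
A-to-G share (vertical axis, percent) at the 9 edited bases (horizontal axis) in each of the 6 model and 6 Keluoxin libraries; points are libraries, the bars mean and SD. Groups overlap at each base, and the 2 bases with an asterisk have fewer than 20 reads in a library.

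Whether Keluoxin changed the share was tested with limma on log2 of G reads over A reads, each plus 0.5, at 95 A positions, 75 in annotated and 20 in predicted precursors. None of the 7 edited bases in this fit passed an adjusted p of 0.05, in either direction. Over all 95 positions 39 (41.1%) passed, 38 (40%) higher and 1 (1.05%) lower in Keluoxin, and the median log2 change was 0.96; the 38 had a median share of 1.452% and none over 3.76%. With the last 5 bases of each read left out, 4 of 43 positions (9.3%) passed. The 5 bases of highest share outside the 8 hairpins did not pass either.

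For miR-3099-3p the lowest, median and highest share were 71.48%, 72.78% and 75.1% in model and 66.93%, 71% and 73% in Keluoxin libraries. Of the 6 Keluoxin libraries, 4 lay below the lowest model library, but the ranges overlapped. Means were 73.1% ± 1.40 and 70.64% ± 2.11 (SD, n = 6 each), with an adjusted p of 0.380 by limma and, by an exact two-sided permutation test of the share, p = 0.0281, adjusted over the 95 positions p = 0.0723. The ratio of G to A reads in Keluoxin was 0.884 times that in model, with a 95% interval of 0.710 to 1.10.

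For miR-411-5p the lowest, median and highest shares were 38.8%, 41.73% and 42.47% in model and 37.56%, 40.06% and 40.49% in Keluoxin. The model ranges reach higher, and the groups overlap (means 41.02% ± 1.74 and 39.7% ± 1.10, SD, n = 6, limma adjusted p = 0.721). The ratio of G to A reads was 0.947 times that in model, 95% interval 0.769 to 1.17.

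For miR-379-5p the lowest, median and highest shares were 14.13%, 16.37% and 18.52% in model and 13.93%, 15.68% and 19.53% in Keluoxin, so that the Keluoxin range covered that of the model (limma adjusted p = 0.880). The ratio of G to A reads was 0.980 times that in model, 95% interval 0.766 to 1.26.

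For miR-376b-3p the lowest, median and highest shares were 58.04%, 67.5% and 70.44% in model and 61%, 65.56% and 67.45% in Keluoxin, the latter within the former (limma adjusted p = 0.829). For the other arm of this hairpin, miR-376b-5p, they were 23%, 25.91% and 31.58% in model and 20.38%, 28.93% and 32.57% in Keluoxin (limma adjusted p = 0.829). The ratios of G to A reads were 0.956 times (0.724 to 1.26) and 1.06 times (0.783 to 1.43) those in model, with 95% intervals in brackets. The 2 edited bases of this hairpin thus showed no change past the threshold.

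For miR-381-3p the lowest, median and highest shares were 3.416%, 5.972% and 8.163% in model and 6.294%, 6.72% and 7.828% in Keluoxin (limma adjusted p = 0.379). For miR-300-3p they were 4.03%, 5.457% and 6.426% in model and 3.912%, 5.295% and 5.847% in Keluoxin (limma adjusted p = 0.802). In both the groups overlapped; the ratios of G to A reads were 1.21 times (0.866 to 1.69) and 0.938 times (0.695 to 1.27) those in model.

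An exact two-sided permutation test was used for the 2 bases with few reads. For miR-376a-5p the lowest, median and highest shares were 48.1%, 60.3% and 66% in model and 44.44%, 48.87% and 60.92% in Keluoxin; means differed by −9.09 percentage points (59% ± 6.99 and 49.91% ± 5.90, SD, n = 6, exact p = 0.0433, not adjusted). With the minimum lowered to 10 reads per library this base entered the limma fit, with an adjusted p of 0.114. For miR-376c-3p they were 25.58%, 44.65% and 59.76% in model and 33.33%, 48.33% and 53.62% in Keluoxin (exact p = 0.660; limma adjusted p = 0.762 at the lower minimum). Only a handful of reads stood behind the lowest of these values, 5 with G and 6 with A for miR-376a-5p in Keluoxin replicate 5.

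Sequence differences elsewhere in the reads moved with the groups, and their part in these comparisons was not tested. A-to-G change at the A positions of the other annotated precursors was 0.3848% ± 0.0164 in model and 0.5255% ± 0.0567 in Keluoxin (SD, n = 6, exact permutation p = 0.00217, the smallest this design allows, adjusted over 6 measures of the libraries p = 0.00433). At the other A positions of the 8 hairpins it was 0.3937% ± 0.0356 and 0.4385% ± 0.0586 (exact p = 0.141, adjusted p = 0.211). Among unedited reads of the 8, 36.99% ± 1.83 carried another difference in model libraries, against 45.19% ± 2.23 in Keluoxin libraries (exact p = 0.00217, adjusted p = 0.00433). When such reads were counted as unedited, again no edited base passed, with adjusted p values (limma) of 0.0905 for miR-3099-3p and 0.103 for miR-411-5p, the lowest of the 7. Edited reads with another difference are not listed, so this count adds to reads with A alone. As it adds more in Keluoxin, it lowers the share there by construction.

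Editing was set against the place where reads begin and end, which did not choose the miRNAs. For each arm, the share of edited and of unedited reads that begin at the most frequent 5′ end, and the mean base at which they end, were compared within libraries that held at least 20 reads of both forms. An exact two-sided paired permutation test (sign flips over libraries) was adjusted over 18 comparisons, of which 10 passed. The 5′ end fixes the seed, so a shifted start is a second way in which the seed of a miRNA can vary.

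The largest difference was in miR-376a-5p. Of its 332 edited reads, 68 (20.48%) began at the annotated base, 124 (37.35%) 1 base before it and 112 (33.73%) 1 base after it. Of its 274 unedited reads, 211 (77.01%) began at the annotated base, 44 (16.06%) 1 base before it and 19 (6.934%) 1 base after it. In the 7 libraries with enough reads, 23.11% ± 10.03 of edited and 75.48% ± 9.06 of unedited reads began there (SD, exact permutation test, adjusted p = 0.0313, lower in 7 of 7). Read the other way, the A-to-G share was 25.64% ± 7.14 among reads from the annotated base (8 libraries) and 79.06% ± 8.31 among those from 1 base before it (3 libraries).

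The main reads of each start show how the seed moves with the start and with the edit together.
miR-376a-5p unedited, annotated start, 201 reads: gGTAGATTctccttctatgagt
miR-376a-5p A4G, annotated start, 68 reads: gGTGGATTctccttctatgagt
miR-376a-5p A4G, 1 base before, 79 reads: aGGTGGATtctccttctatgagt
miR-376a-5p A4G, 1 base after, 109 reads: gTGGATTCtccttctatgagt
None of the 3 edited seeds is that of another of the 1738 mature miRNAs. The read that begins 1 base after the annotated end starts with the same 6 letters as miR-376b-5p.

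In miR-411-5p there were 2 common starts, the annotated base and the base before it. Of edited reads 49.29% ± 3.62 began at the annotated base, and of unedited reads 54.38% ± 2.97 (SD, n = 12, exact permutation test, adjusted p = 0.00251, lower in 11 of 12 libraries). Read the other way, the A-to-G share was 38.01% ± 1.90 among reads from the annotated base and 42.91% ± 2.24 among those from the base before it. The difference was 4.90 ± 2.75 percentage points (higher in 11 of 12 libraries, exact paired permutation p = 0.000977, not adjusted). It is the same contrast in the same reads, so this p-value is not a further result. Edited miR-411-5p reads also ended later, at base 20.74 ± 0.055 against 20.59 ± 0.073 on average (adjusted p = 0.00251, exact permutation test, later in 12 of 12 libraries).

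The 4 main miR-411-5p reads carry 4 different seeds.
miR-411-5p unedited, annotated start, 4138 reads: tAGTAGACcgtatagcgtacg
miR-411-5p unedited, 1 base before, 3387 reads: aTAGTAGAccgtatagcgtacg
miR-411-5p A5G, annotated start, 2923 reads: tAGTGGACcgtatagcgtacg
miR-411-5p A5G, 1 base before, 2910 reads: aTAGTGGAccgtatagcgtacg
The first of these seeds is shared with miR-7229-5p and the last with miR-1951; the other 2 matched no other mature miRNA. Reads from the base before the annotated one made up 49.04% ± 1.84 of the total in model libraries, against 46.28% ± 3.31 in Keluoxin libraries (SD, n = 6, exact two-sided permutation test, p = 0.0758).

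In 3 arms listed edited reads kept the annotated start more often than listed unedited ones. The values were 99.17% ± 1.05 against 94.5% ± 1.86 in miR-376b-5p (higher in 12 of 12 libraries), 98.32% ± 2.71 against 92.37% ± 0.855 in miR-300-3p (11 of 12) and 99.77% ± 0.316 against 97.84% ± 1.01 in miR-376b-3p (11 of 12), each with an adjusted p of 0.00251 by the exact permutation test. A read sequence seen only once in a library is not listed, so rare starts drop out more from the form with fewer reads. That was the edited form in miR-376b-5p and miR-300-3p, and the unedited form in miR-376b-3p. The part of this rule in these differences was not tested. In miR-300-3p, 569 listed reads of the libraries with enough reads began 4 bases after the annotated end, and none of these was edited. They numbered 25 to 113 in a library, spread over several 3′ ends. By the same rule, edited reads seen only once in a library would be missed here. In miR-381-3p the shares were 97.78% ± 0.916 and 98.58% ± 0.224, lower in 9 of 12 libraries (adjusted p = 0.0316, exact permutation test). This last difference did not pass when reads shared with miR-300-3p were counted (adjusted p = 0.102, exact permutation test). With these reads counted, edited miR-381-3p reads ended earlier, at base 21.83 ± 0.0538 against 21.91 ± 0.0202 (in 12 of 12 libraries, adjusted p = 0.00220, exact permutation test); without them the end could hardly vary, since almost all reads kept ended at base 22.

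Edited reads of miR-376b-3p ended earlier, at base 20.72 ± 0.105 against 20.92 ± 0.154 (in 12 of 12 libraries, adjusted p = 0.00251, exact permutation test). In miR-300-3p the mean ends were 21.54 ± 0.120 and 21.7 ± 0.0936 (earlier in 11 of 12, adjusted p = 0.00251, exact permutation test). These means take in reads of every start. Unedited miR-300-3p reads that began 4 bases late ended mostly at bases 25 and 26 (192 and 286 reads), and no such edited reads were listed. The miR-300-3p difference in ends thus contains its difference in starts. Reads from the annotated start were not tested alone. Their most frequent end was base 22 in both forms (10078 unedited and 519 edited reads). In miR-376c-3p the ends were 20.76 ± 0.145 and 20.93 ± 0.0616 (earlier in 7 of 9 libraries, adjusted p = 0.0313, exact permutation test). In miR-379-5p and miR-3099-3p neither end differed past the threshold. All of the miR-3099-3p reads used began at the annotated base.

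The levels of the arms were compared by edgeR's quasi-likelihood test over 802 arms. Levels are CPM, reads scaled to library size, after TMM scaling, which sets library sizes by the bulk of arms. Bulk RNA cannot tell fewer cells of a type from less RNA per cell. Of the 16 arms of the 8 hairpins, 12 had enough reads to be tested; miR-300-5p (84 reads in all), miR-376c-5p (56), miR-3099-5p (24) and miR-381-5p (17) had too few. Of the 12, 5 were lower in Keluoxin and 0 higher at an adjusted p of 0.05, against 8.23% lower and 9.1% higher of all 802 arms; 4 of the 5 did not overlap between groups, which 7.61% of all arms did not. The called arms were both arms of miR-379 and of miR-411 and miR-3099-3p.

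For miR-379-5p, the lowest, median and highest levels were 485.9, 586.8 and 670.4 CPM in model and 272.3, 353.8 and 400.6 CPM in Keluoxin. Every Keluoxin library lay below every model library. The level fell by 0.76 on the log2 scale (SE 0.126, adjusted p = 0.00518, edgeR). Its partner strand miR-379-3p had 15.53, 20.45 and 29.57 CPM in model and 8.177, 11.23 and 13.73 CPM in Keluoxin, again with no overlap, and fell by 0.96 (SE 0.223, adjusted p = 0.0152, edgeR). Both passed under every scaling tried.

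For miR-411-5p the lowest, median and highest levels were 387.3, 463.4 and 530.2 CPM in model and 313.9, 342.2 and 367.5 CPM in Keluoxin, with no overlap. The level fell by 0.41 on the log2 scale (SE 0.10, adjusted p = 0.0193, edgeR), but with libraries scaled to total reads the change was −0.22 and did not pass (adjusted p = 0.184). Its partner miR-411-3p had 17.88, 24.91 and 44.35 CPM in model and 8.419, 14.62 and 19.85 CPM in Keluoxin; 5 of 6 Keluoxin libraries lay below the lowest model library. It fell by 0.91 (SE 0.261, adjusted p = 0.033, edgeR), a call kept in 5 of the 12 fits with a library left out, lost without model replicate 2, 3, 4 or 5 or Keluoxin replicate 2, 5 or 6 (adjusted p from 0.0578 to 0.0722), and lost with scaling to total reads (adjusted p = 0.101).

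For miR-3099-3p, the arm outside the cluster, the lowest, median and highest levels were 95.54, 115 and 128.3 CPM in model and 57.74, 73.43 and 84.12 CPM in Keluoxin. There was no overlap, and the level fell by 0.64 on the log2 scale (SE 0.125, adjusted p = 0.00745, edgeR). With scaling to total reads the change was −0.44 (adjusted p = 0.0603).

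The other 7 tested arms did not pass. The arm miR-300-3p had 450, 558.2 and 632.1 CPM (lowest, median, highest) in model and 402.5, 469.4 and 499.9 CPM in Keluoxin, a log2 fold change of −0.27 (SE 0.101, adjusted p = 0.0778, edgeR; 0.0371 without model replicate 2). The arm miR-381-3p had 819.3, 1051 and 1180 CPM in model and 1012, 1044 and 1202 CPM in Keluoxin (log2 fold change 0.08, SE 0.101, adjusted p = 0.582, edgeR). In the miR-376b hairpin the log2 fold change was 0.03 for the 3p arm (SE 0.205, adjusted p = 0.939) and 0.22 for the 5p arm (SE 0.101, adjusted p = 0.137), where 5 of 6 Keluoxin libraries lay above the highest model library. It was 0.16 (SE 0.180) for miR-376a-5p, 0.07 (SE 0.228) for miR-376c-3p and −1.08 (SE 0.349, adjusted p = 0.0523, edgeR; 0.0231 and 0.0395 without model replicates 1 and 2) for miR-376a-3p, with a mean of 6.43 ± 3.66 CPM in model and 3.07 ± 0.683 in Keluoxin. The miR-379 and miR-411 hairpins, at one end of the 17.84 kb, thus held the called arms of these 7 hairpins.

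**Figure D3:**
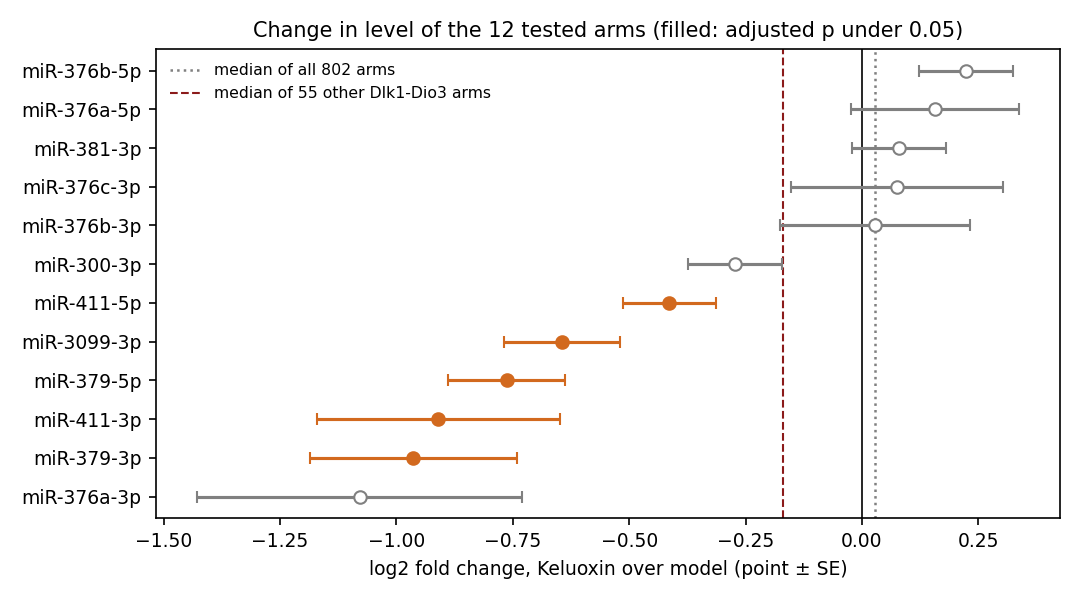
Log2 fold change of each of the 12 tested arms, Keluoxin over model (horizontal axis, point and SE), with arms that passed an adjusted p of 0.05 filled; the lines mark 0, the median of all 802 arms and that of 55 other Dlk1-Dio3 arms. The 5 filled arms lie between −0.96 and −0.41.

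Scaling bears on these directions. Over all 802 arms the log2 fold change had a median of 0.03 with TMM, −0.23 with upper quartile scaling and 0.23 with scaling to total reads; the calls were 73 higher and 66 lower, 71 and 113, and 88 and 25. The log2 fold changes of the 5 called arms were negative under each scaling. Those of miR-376b-3p, miR-376b-5p, miR-376a-5p, miR-376c-3p and miR-381-3p were positive with TMM and total reads and negative with upper quartile scaling, without passing.

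The edited and the unedited form of each arm were then fitted as separate rows in place of the arm (811 rows in all). Only reads without a second difference enter the forms, so their levels sum to less than the arm's. Reads with such a difference made up a larger part of unedited reads in Keluoxin than in model libraries, as given above, which lowers the forms' levels there; the arm levels count these reads. Of the 9 edited forms, 3 were lower in Keluoxin and 0 higher, and of the 9 unedited forms 4 were lower and 0 higher, against 8.63% lower and 9% higher of all rows; the forms of miR-379-5p, miR-411-5p and miR-3099-3p did not overlap between groups, which 7.89% of all rows did not. For these 3 arms both forms fell.

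Edited miR-379-5p had 46.97, 63.84 and 74.92 CPM (lowest, median, highest) in model and 23.23, 30.77 and 35.65 CPM in Keluoxin. It fell by 1.03 on the log2 scale (SE 0.158, adjusted p = 0.00300, edgeR). The unedited form had 278.6, 321 and 375.4 CPM and 129, 167.6 and 191.7 CPM, and fell by 0.99 (SE 0.130, adjusted p = 0.00208, edgeR). Both forms were thus lower in 6 of 6 Keluoxin libraries than in any model library.

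Edited miR-411-5p had 113.6, 145.9 and 158.4 CPM in model and 74.34, 94.32 and 97.36 CPM in Keluoxin, and fell by 0.62 (SE 0.117, adjusted p = 0.00681, edgeR). The unedited form had 167.2, 198.3 and 239.4 CPM and 123.6, 141.6 and 143.6 CPM, and fell by 0.55 (SE 0.108, adjusted p = 0.00822, edgeR). Neither passed with scaling to total reads (adjusted p = 0.05001 and 0.07546, edgeR).

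Edited miR-3099-3p, the more frequent form of this arm, had 58.83, 65.34 and 73.51 CPM in model and 30.59, 39.62 and 43.78 CPM in Keluoxin. It fell by 0.79 on the log2 scale (SE 0.127, adjusted p = 0.00347, edgeR). The unedited form had 20.24, 24.3 and 28.47 CPM and 13.17, 16.08 and 18.14 CPM, and fell by 0.63 (SE 0.140, adjusted p = 0.0122, edgeR). With scaling to total reads the edited form passed (adjusted p = 0.0180) and the unedited form did not (0.0773).

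In miR-300-3p the unedited form passed, with 252, 301.3 and 361.5 CPM in model and 205.4, 229.2 and 258.9 CPM in Keluoxin (log2 fold change −0.40, SE 0.104, adjusted p = 0.0232, edgeR), and the edited form did not (−0.50, SE 0.183, adjusted p = 0.0745). That does not show that the forms differ, since the share itself did not pass; the call of the unedited form was kept in 8 of the 12 fits with a library left out, lost without model replicate 3, 4 or 5 or Keluoxin replicate 6 (adjusted p from 0.0526 to 0.0625), and lost with scaling to total reads (adjusted p = 0.187). Edited miR-381-3p, with the seed of miR-300-3p, had 25.05, 39.59 and 45.04 CPM in model and 33.77, 41.97 and 46.77 CPM in Keluoxin (log2 fold change 0.11, SE 0.154, adjusted p = 0.624, edgeR). The log2 fold changes of the edited and unedited forms were −0.07 and 0.01 in miR-376b-3p, 0.06 and −0.01 in miR-376b-5p, −0.19 and 0.28 in miR-376a-5p, and −0.07 and −0.20 in miR-376c-3p, none of them called.

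**Figure D4:**
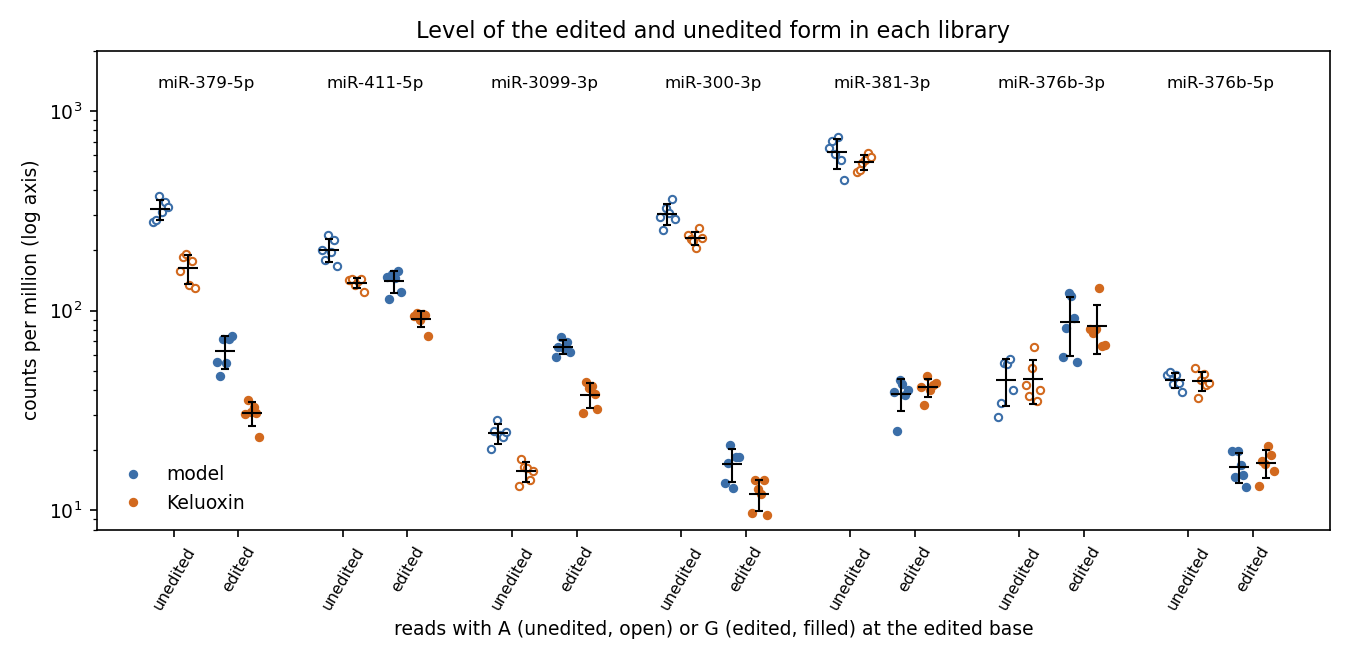
Level (vertical log axis, CPM) of the unedited (open) and edited (filled) form of 7 arms in each of 6 model and 6 Keluoxin libraries; bars are mean and SD. In miR-379-5p, miR-411-5p and miR-3099-3p each Keluoxin library lies below each model library in both forms, and the forms of miR-376b-3p and miR-376b-5p overlap.

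Of the other arms of the Dlk1-Dio3 list (55 tested arms of 39 hairpins), 1 was higher and 9 lower in Keluoxin, against 9.1% higher and 8.23% lower of all 802 arms. Their median log2 fold change was −0.17, beside −0.34 for the 12 arms described and 0.03 for all arms. The 3 with the smallest p were miR-369-5p (90 ± 18.6 CPM in model, 49.1 ± 11.8 in Keluoxin, SD, n = 6, adjusted p = 0.0116), miR-134-5p (205.7 ± 23.5 and 150.6 ± 7.75 CPM, adjusted p = 0.0142) and miR-770-3p (28.21 ± 9.45 and 14.51 ± 2.03 CPM, adjusted p = 0.0152), all by edgeR.

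The annotated arms whose pattern over the 12 libraries was closest to the mean of the 12 arms, by the root-mean-square difference of centred log2 CPM, were miR-375-3p (0.130), miR-7a-3p (0.135) and miR-99b-5p (0.146), of 490 arms with a median of 0.371. The level of miR-375-3p was 220.6 ± 17.4 CPM in model libraries, against 166.4 ± 12.2 CPM in Keluoxin libraries (SD, n = 6, adjusted p = 0.0146, edgeR). The level of miR-7a-3p was 175.4 ± 23.3 and 156.1 ± 20.1 CPM and did not pass (adjusted p = 0.333, edgeR), and that of miR-99b-5p was 2820 ± 392.1 and 2005 ± 121.9 CPM (adjusted p = 0.00940, edgeR).

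Library depth ranged from 1933375 to 7892147 reads. The photoreceptor list (3 of 3 hairpins seen: miR-182, miR-183, miR-96) summed to between 352800 and 417400 CPM in model and between 187400 and 376100 CPM in Keluoxin. The neuron list (2 of 2 seen) summed to between 112100 and 130300 CPM in model and between 86640 and 118400 CPM in Keluoxin. The endothelium marker miR-126a, from 1590 to 2118 CPM in model and from 1095 to 1409 CPM in Keluoxin, and the islet marker miR-375, from 203.1 to 249.4 CPM and from 150.5 to 181.2 CPM, did not overlap between groups. Overlapping ranges were seen for the pigment epithelium (9406 to 12260 CPM in model, 10340 to 12040 CPM in Keluoxin), erythroid (59.28 to 76.24 CPM in model, 56.12 to 719.8 CPM in Keluoxin), muscle (295.1 to 436 and 280.8 to 1887 CPM), leukocyte (8.761 to 19.65 and 12.97 to 27.36 CPM) and liver lists (1.177 to 4.945 and 2.373 to 41.04 CPM); all hairpins of these lists were seen. The part of these cell types in the lower levels was not tested. On the first principal component of all arms (52.4% of the variance), model replicate 1 lay at 10.3 on the side of the Keluoxin libraries (5.46 to 18.5), while the other model libraries lay between −35.1 and −9.1. Without it and Keluoxin replicate 4, the 5 called arms passed again (log2 fold changes −0.74, −0.99, −0.39, −1.01 and −0.73 for the 5p and 3p arms of miR-379, those of miR-411, and miR-3099-3p, in this order), miR-376a-3p passed as well (−1.23, adjusted p = 0.0346, edgeR), and no edited base changed its share past the threshold.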

How the data were processed

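Small RNA of 6 model and 6 Keluoxin libraries was analysed, from 1 deposited table per library. Novoalign, Bowtie, cutadapt and bcl2fastq appear in the submitters' processing notes, with no version or role. The build is not given in the sources used here, nor is the miRBase release. A deposited table lists distinct reads with their count (whole reads, not normalized) and, per the file headers, the precursors they align to and the differing base. Reads listed were seen at least 2 times, were 15 to 51 nt long and had at most 1 difference. The other deposited values, positions and lengths, have no normalization, per the file headers. For shares and read ends the undivided count of each read was used. For the levels of arms, the count of a read listed under several arms was divided equally among them.

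The last 2 bases of a read were not used for shares, and reads that the tables list under several miRNAs, or whose edited form lies unchanged in another hairpin, were left out of both forms. Unedited miR-300-3p reads that could be edited miR-381-3p were kept, and left out in an alternative. Tools were edgeR 4.0.16, limma 3.58.1 and DESeq2 1.42.0 in R 4.3.3, RNAfold 2.7.2, and SciPy 1.17.1, pandas 2.3.3 and NumPy 2.4.6 in Python 3.11.15, with Benjamini-Hochberg adjustment at 0.05. On simulated data edgeR recovered 19.4%, 55.2% and 81.8% of arms changed 1.5-, 2- and 4-fold (785 arms, 1 unchanged arm called). For sites changed by 0.5, 1 and 2 log2 units, limma recovered 0%, 37.5% and 87.5% (95 sites, 1 unchanged site called). There 8 sites per change were drawn at random from the 95. Beside counting error, libraries differed by 0.5 times the median residual SD of the data, so recovery at the edited bases is not given by these values. Intervals and limits cover counting or replicate error only, since reads carry no molecular identifiers. Named arms are all arms of the 8 hairpins, the 5 highest annotated sites outside them, the 3 other Dlk1-Dio3 arms with the smallest p and the 3 arms of nearest pattern. The hairpins and lists were chosen with earlier results of these data known.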

Additional observations from a re-analysis of the deposited data

Results flagged for a closer look

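In 6 of 78 groups of 6 libraries looked at, 1 library lay far from the other 5 by Dixon's test; chance flags about 1 in 20 groups. The A-to-G share of miR-411-5p was 37.56% in 1 Keluoxin library (others 39.57% to 40.49%), and edited miR-411-5p stood at 74.34 CPM in 1 Keluoxin library (others 89.99 to 97.36). The level of miR-376b-3p was 242.7 CPM in 1 Keluoxin library (others 135.8 to 164.6), and that of its edited form 129.2 CPM (others 66.3 to 81.24). The level of miR-376b-5p was 81.73 CPM in 1 Keluoxin library (others 93.88 to 99.97). Edited miR-381-3p stood at 25.05 CPM in 1 model library (others 37.8 to 45.04).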

How the results depend on the processing

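No alternative reversed a called result of the 8 hairpins, and no edited base changed its share past the threshold under any of the alternatives run. Counts over all features moved more. Arms called were 139, and 234 with DESeq2, 70 with annotated precursors only, 212 without model replicate 1 and Keluoxin replicate 4 (added after seeing the data) and 71 to 241 with 1 library left out; the 3 libraries that moved it over 1.5 times were model replicates 1 (241), 3 (85) and 4 (71). Rows with forms called were 143, and in the same order 236, 76, 216 and 78 to 245 (model replicates 1, 3 and 4: 245, 89 and 78). Sites called were 39, and 67 with no minimum share, 1 with a minimum share of 5%, 137 with all bases used, 4 without the last 5 bases and 14 with unedited reads with another difference counted (added after seeing the data), and 33 to 45 with 1 library left out. Read-end differences that passed were 10 in each of the 3 alternatives run, of which 9 were the same when reads shared between miRNAs were counted (the end of miR-381-3p in place of its start) and 10 in the other two. The call of miR-411-3p was lost in 10 of 20 alternatives, that of unedited miR-300-3p in 6 of 22, that of miR-411-5p in 2 of 20 and that of miR-3099-3p in 1 of 20; the cause was not tested. Edited and unedited miR-411-5p each lost the call in 1 of 22 and unedited miR-3099-3p in 2 of 22. The arms miR-300-3p and miR-376a-3p passed in 3 and 6 of 20, miR-376b-5p in 1 of 20 and edited miR-300-3p in 2 of 22.

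The replicate numbers were not taken as pairs, since 4 of 6 correlations and not all were over 0.1 and the labels name no shared animal or batch: correlations of same-numbered deviations were 0.035, 0.228, 0.232, 0.129, 0.126 and 0.0895, and 2 of 12 libraries correlated best with their own number. With the replicate number as a block, 134 arms, 140 rows with forms and 39 sites were called, and miR-411-3p had an adjusted p of 0.0553 (edgeR). Among the edited bases depth limits those of miR-376a-5p and miR-376c-3p most, with as few as 11 and 12 reads in a library.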
